A study of Mus musculus with 19 samples.

Results

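The 10 genes described here encode junction proteins, keratins, a brush border protein and a mesenchymal filament protein, and they were chosen by name as markers of epithelial and mesenchymal cell state. All 10 (Cdh1, Cdh2, Epcam, Krt8, Krt18, Krt19, Vil1, Cldn6, Tjp1 and Vim) were found among the 23337 gene symbols of the RefSeq expression tables, on 11 of 30455 transcript rows. Only Tjp1 had 2 transcripts, which gave nearly equal counts, and the one with more reads on average stands for the gene. Expression was measured by RNA-seq of ribosomal RNA-depleted total RNA in 11 libraries: visceral yolk sac endoderm (ysE) at E9.25 (n = 2) and E12.5 (n = 1), visceral yolk sac mesoderm at E9.25 (n = 2), fetal liver at E12.5 (n = 2), and cystic embryoid bodies (cystic EBs; n = 4). The tissues were of the FVB background, with an entire litter pooled for each sample. Because the layers were divided by dissection following Dispase II, what is called mesoderm here also contains blood vessels and basement membrane. Cystic EBs, fluid-filled aggregates of differentiating embryonic stem (ES) cells, were of the C57Bl/6x129 background and were taken at 10 and 15 days of differentiation from clone A9 (replicate A) and clone JN (replicate B), with 1 library per clone and day. The ES cells had been grown on mouse embryonic fibroblast feeders before differentiation. Bisulfite sequencing covered ysE and liver at E12.5 and cystic EBs at day 15, each from the reciprocal CastxFVB and FVBxCast crosses (1 library per cross), and the cystic EBs came there from other ES clones than in the RNA-seq. H3K4me3 was measured in 1 library of whole FVB visceral yolk sac at E12.5.

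Epithelial cells are held together by adherens junctions, built on cadherins, and sealed by tight junctions, built on claudins and the scaffold proteins that bind them. Keratin filaments of simple epithelia pair a type II keratin (Krt8) with a type I keratin (Krt18 or Krt19), whereas mesenchymal cells build their filaments from vimentin and often carry N-cadherin (Cdh2) in place of E-cadherin (Cdh1). The visceral endoderm is a polarised absorptive epithelium with a dense apical brush border, and villin (Vil1) bundles actin in its microvilli.

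Library preparation differed between groups. The E9.25 ysE and mesoderm libraries and those of clone JN cystic EBs were made with the dUTP protocol, the liver and clone A9 libraries with ScriptSeq, and the E12.5 ysE library without strand information. Clone and protocol therefore cannot be told apart in cystic EBs, nor protocol and stage in E12.5 ysE. A protocol term, where one is used below, sets dUTP against all other libraries. Only cystic EBs held both kinds, so the term is the difference between their clones. Summed transcript counts ran from 40453779 (E12.5 ysE) to 169981821 (E9.25 ysE replicate B) per library, and the 10 genes took 0.0984% to 0.36% of them. The summed RPKM (reads per kilobase of transcript, scaled to library size) of 9 yolk sac endoderm markers was 9840 and 10710 in E9.25 ysE, 42750 in E12.5 ysE, 1094 and 1946 for mesoderm, 1499 and 2694 for liver, and 164 to 1255 for cystic EBs. Of the other marker sets, 6 endothelial genes summed to 164 and 182 RPKM in mesoderm and to 8.47 or less in ysE, and the 8 erythroid genes to 34400 and 44120 RPKM in mesoderm. Cystic EBs were the libraries with the 4 pluripotency markers, at 89.5 to 181 RPKM, against 5.65 or less elsewhere, and their 4 cardiac markers ranged from 8.61 to 222 RPKM.

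The genes are given in coordinates of mouse build mm10 (GRCm38). Epcam spans chr17:87635979-87651127, Cldn6 chr17:23679348-23682446, Tjp1 chr7:65296165-65527850, Krt19 chr11:100140810-100145926, Vil1 chr1:74409384-74435560 and Vim chr2:13574311-13582826. Krt8 (chr15:101996711-102004342) and Krt18 (chr15:102028216-102032026), partners in the same filament, are neighbours whose starts lie 23.9 kb apart. RefSeq promoter windows, from 250 bases before to 50 after the gene start, were at hand for 7 of the 10 genes. The 5 printed here, 5′ to 3′ on the gene's strand, are those of the 2 genes with the steepest fall from ysE to liver, of the keratin pair and of Vim. Capitals mark CACCTG or its reverse complement CAGGTG, the E-box bound by repressors of the Snail and Zeb families, and TATAAA, the TATA box.
Cldn6: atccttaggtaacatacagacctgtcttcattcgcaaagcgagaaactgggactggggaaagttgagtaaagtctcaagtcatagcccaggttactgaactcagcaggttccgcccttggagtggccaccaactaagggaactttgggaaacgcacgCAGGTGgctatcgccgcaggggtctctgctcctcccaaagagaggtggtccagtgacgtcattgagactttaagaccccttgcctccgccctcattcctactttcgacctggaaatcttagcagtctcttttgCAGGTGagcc
Vil1: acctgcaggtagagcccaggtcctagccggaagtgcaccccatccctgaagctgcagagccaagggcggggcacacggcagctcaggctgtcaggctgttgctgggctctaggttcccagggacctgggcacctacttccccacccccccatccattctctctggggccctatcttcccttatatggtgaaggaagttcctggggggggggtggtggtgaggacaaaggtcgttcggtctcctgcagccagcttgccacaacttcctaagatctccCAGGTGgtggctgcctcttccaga
Krt8: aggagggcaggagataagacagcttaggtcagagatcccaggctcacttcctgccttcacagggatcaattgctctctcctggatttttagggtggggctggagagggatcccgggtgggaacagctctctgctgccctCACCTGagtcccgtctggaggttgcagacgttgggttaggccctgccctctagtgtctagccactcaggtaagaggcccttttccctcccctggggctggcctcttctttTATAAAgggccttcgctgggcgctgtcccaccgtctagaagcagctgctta
Krt18: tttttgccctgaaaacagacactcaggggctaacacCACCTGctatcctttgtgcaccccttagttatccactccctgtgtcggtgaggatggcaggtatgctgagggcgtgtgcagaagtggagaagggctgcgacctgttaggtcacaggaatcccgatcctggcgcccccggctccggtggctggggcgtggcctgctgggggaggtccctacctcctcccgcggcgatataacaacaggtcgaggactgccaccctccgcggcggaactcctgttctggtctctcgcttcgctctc
Vim: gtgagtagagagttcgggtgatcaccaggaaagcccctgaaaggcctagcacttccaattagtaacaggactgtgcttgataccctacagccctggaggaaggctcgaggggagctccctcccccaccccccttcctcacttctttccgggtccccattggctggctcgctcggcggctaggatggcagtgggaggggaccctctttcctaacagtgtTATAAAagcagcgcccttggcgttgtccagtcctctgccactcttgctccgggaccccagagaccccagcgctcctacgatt
These windows are chr17:23679115-23679414 (+), chr1:74409134-74409433 (+), chr15:102004293-102004592 (-), chr15:102027966-102028265 (+) and chr2:13574061-13574360 (+). CACCTG on either strand occurred in the windows of Epcam (2 matches), Cldn6 (2), Krt8, Krt18 and Vil1 (1 each) and not in those of Tjp1 and Vim, while 19.3% of 17491 protein-coding promoters held it. TATAAA on either strand was found in Vim, where it begins at position -32 from the start, and in Krt8, where it begins at position -1 and overlaps its own reverse complement, against 13.3% of all promoters. The GC box GGGCGG, on either strand, was present in Epcam, Vil1, Cldn6 and Tjp1, against 46.3% of all promoters. Counts of CpG ranged from 5 (Vil1) to 31 (Tjp1) per window, against a median of 13.

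Among the adhesion receptors, Cdh1 (chr8:106603350-106670247), the cadherin of epithelial adherens junctions, was measured at 46.2 and 49.2 RPKM in E9.25 ysE and 82.7 in E12.5 ysE. Cystic EBs held 39.0 (day 10, A9), 37.7 (day 10, JN), 45.7 (day 15, A9) and 27.7 RPKM (day 15, JN). Mesoderm held 4.66 and 9.16 and liver 4.19 and 6.12 RPKM. Every ysE library thus lay above every cystic EB library, and these above mesoderm and liver, which overlapped each other. Epcam, a homophilic adhesion molecule of epithelia, followed the same split with a smaller gap between the high groups: 85.8 and 82.4 RPKM in E9.25 ysE, 118 in E12.5 ysE, and 75.4, 77.6, 99.5 and 96.3 RPKM in cystic EBs in the order above. The cystic EB range for Epcam enclosed both E9.25 ysE libraries. Epcam stood at 5.49 and 10.2 RPKM in mesoderm and, in liver, at 12.6 in replicate A against 2.07 in replicate B. Cdh2 (chr18:16588877-16809246) ran the other way, with 0.022 and 0.066 RPKM in E9.25 ysE (12 and 55 reads) and 0.155 in E12.5 ysE (31 reads). Mesoderm gave 0.728 and 0.347 RPKM, liver 9.89 and 9.07, and cystic EBs 10.98, 7.05, 2.57 and 8.04. The liver and cystic EB ranges of Cdh2 overlapped, and both were above mesoderm and ysE.

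**Figure D1:**
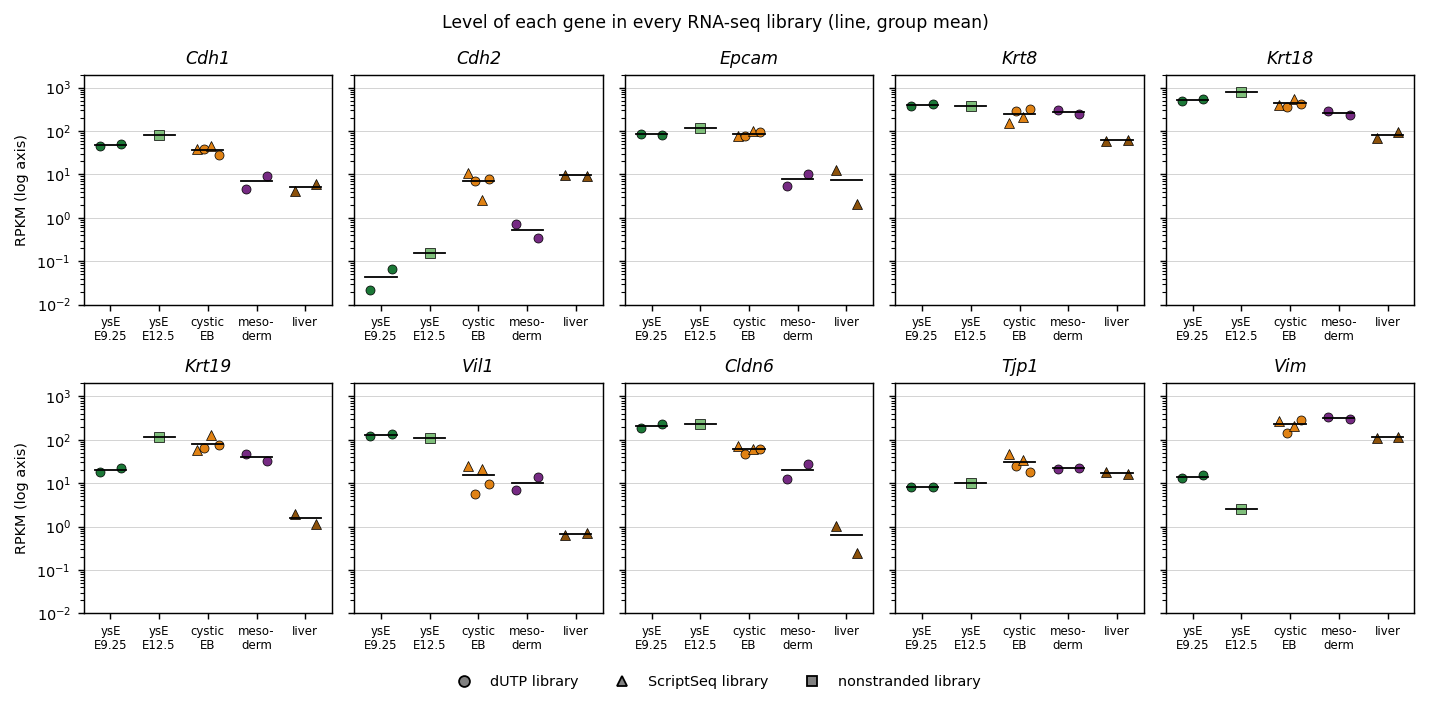
RPKM (log axis) of the 10 genes in each of the 11 RNA-seq libraries, by tissue; symbols give the library protocol and lines the group means. Cdh2 and Vim are lowest in ysE, whereas Cdh1, Epcam, Vil1 and Cldn6 are high in ysE and between 0.244 and 27.4 RPKM in mesoderm and liver.

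Of the tight junction genes, Cldn6, a claudin of embryonic epithelia, reached 188 and 227 RPKM in E9.25 ysE and 226 in E12.5 ysE. It stood at 47.9 to 72.9 RPKM in cystic EBs, at 12.3 and 27.4 in mesoderm, and at 1.05 and 0.244 in liver (144 and 28 reads). These groups did not overlap, except that the E12.5 value fell between the E9.25 values. Tjp1, the ZO-1 scaffold beneath tight junctions, was lowest where Cldn6 was highest: 8.03 and 8.12 RPKM in E9.25 ysE and 9.96 in E12.5 ysE. Liver libraries held 18.4 and 16.3 RPKM of Tjp1 and mesoderm 21.2 and 22.7, within or just below the cystic EB range of 18.4 to 47.0.

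Krt18 and Krt8 had the highest RPKM of the 10 genes in every ysE library. Krt18 was at 499 and 547 RPKM in E9.25 ysE and 783 in E12.5 ysE. Cystic EBs, at 367 to 538 RPKM, overlapped E9.25 ysE for this gene, and mesoderm (286 and 233) and liver (69.1 and 96.6) lay below. Krt8 was at 369 and 417 RPKM in E9.25 ysE and 381 in E12.5 ysE. Mesoderm had 312 and 249 RPKM of Krt8, whereas liver had 58.9 and 62.7. Among cystic EBs, clone A9 gave 149 and 206 RPKM of Krt8 and clone JN 296 and 313, a range that overlapped mesoderm. Krt19, the other type I keratin of simple epithelia, was low in E9.25 ysE (18.3 and 22.2 RPKM) and high in E12.5 ysE (117). Cystic EBs held 59.2 to 131 RPKM of Krt19, mesoderm 47.1 and 32.8, and liver 1.92 and 1.15.

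Vil1 was at 123 and 137 RPKM in E9.25 ysE and 110 in E12.5 ysE. Clone A9 cystic EBs held 24.5 and 20.7 RPKM and those of clone JN 5.73 and 9.36. Mesoderm had 6.84 and 13.6 RPKM of Vil1, liver 0.65 and 0.694. Cystic EBs and mesoderm overlapped for Vil1 and lay between ysE and liver. Vim stood at 13.4 and 15.1 RPKM in E9.25 ysE and at 2.59 in the E12.5 library (205 reads). It reached 343 and 299 RPKM in mesoderm, against 110 and 116 for liver. Cystic EBs held 275, 145, 212 and 286 RPKM, and no neighbouring groups in this order overlapped.

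The comparison of the separated yolk sac layers at E9.25, all in dUTP libraries, asks which of these genes mark the endoderm. With edgeR's quasi-likelihood test at a false discovery rate of 5%, 5 of the 10 genes were higher in ysE and 2 lower, where 30.6% of the 24858 transcripts tested were called (13.7% higher and 16.9% lower). The median log2 fold change was 1.07 over the 10 genes and -0.05 over all transcripts. Vil1 was higher in ysE by 3.98 ± 0.70 (log2 ± SE; adjusted p = 0.00252), Epcam by 3.74 ± 0.72 (adjusted p = 0.00397), Cldn6 by 3.69 ± 0.63 (adjusted p = 0.00224) and Cdh1 by 3.10 ± 0.41 (adjusted p = 0.000636). These differences correspond to 8.55-fold to 15.8-fold. Krt18 was 2.52-fold higher in ysE (log2 1.33 ± 0.29, adjusted p = 0.00693), which was lost when mesoderm replicate B was left out (adjusted p up to 0.0631). Vim was 18.0-fold lower in ysE (log2 -4.17 ± 0.34, adjusted p = 0.000154) and Cdh2 9.48-fold lower (log2 -3.25 ± 0.70, adjusted p = 0.00679), the latter call being lost without ysE replicate A. Krt8 (log2 0.81 ± 0.34), Krt19 (-0.66 ± 0.43) and Tjp1 (-1.13 ± 0.40) did not pass. Tjp1 passed as lower in ysE by DESeq2, with only these groups in the fit, with the replicate letter as a block, with protocol as a term, and without the day 10 A9 or either day 15 cystic EB library. Krt8 also passed as higher with only these groups, with protocol as a term and without the day 10 A9 library, and Krt19 as lower with only these groups, where all 10 genes were called. Without mesoderm replicate B the log2 differences of Cdh1, Vil1 and Cldn6 were 3.70, 4.60 and 4.42, and that of Cdh2 was -4.30 without ysE replicate B and -2.66 without mesoderm replicate A. In bulk samples, fewer cells of a type and less RNA per cell cannot be told apart.

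Set as a percent of ysE, the mesoderm levels of the epithelial genes fell into separate ranges. Vil1, Epcam, Cldn6 and Cdh1 were at 5.26% to 9.77% of the mean E9.25 ysE RPKM in mesoderm replicate A and at 10.5% to 19.2% in replicate B, so that replicate B was 1.85 to 2.23 times replicate A. The 9 yolk sac endoderm markers showed 5.63% to 23.1% in replicate A and 12.3% to 33.4% in replicate B, with replicate B at 1.37 to 2.2 times replicate A. None of these markers was at 0 in mesoderm, and their part in the mesoderm values of the 4 genes was not tested. The keratins did not show this pattern. Krt8 in mesoderm was at 79.4% and 63.3% of ysE, Krt18 at 54.7% and 44.5%, and Krt19 at 233% and 162%, with replicate B at 0.695 to 0.814 times replicate A. The 7 markers of mesothelium and mesenchyme were at 181% to 3960% of ysE in mesoderm replicate A and 105% to 3620% in replicate B. In the other direction, Vim in ysE was at 4.17% and 4.71% of its mesoderm level, and Cdh2 at 4.09% and 12.3%. The 6 endothelial markers in ysE were at 2.07% to 7.09% of mesoderm.

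**Figure D2:**
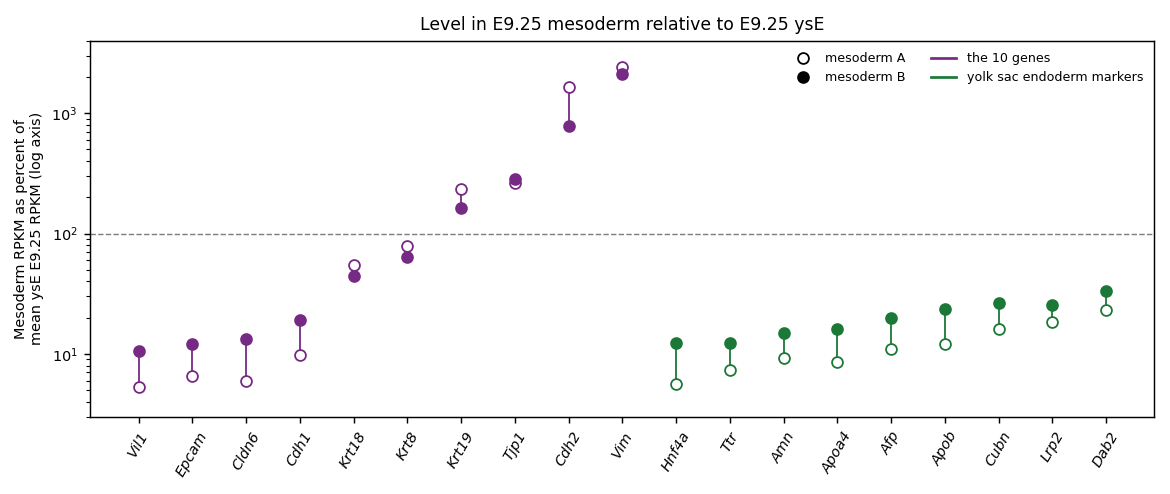
Level in each mesoderm library as a percent of the mean E9.25 ysE level (log axis; dashed line, equal levels), for the 10 genes and 9 yolk sac endoderm markers. Cdh1 lies within the range of the endoderm markers in both libraries, Epcam and Cldn6 at or near its lower end (Epcam just under it in replicate B) and Vil1 below it, and all 4 are higher in replicate B, while the keratins, from 44.5% to 233%, are higher in replicate A.

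Cystic EBs were compared with E9.25 ysE because the study asked how far they can stand in for that tissue. In this and the later comparisons with a tissue, the 4 cystic EB libraries were fitted as independent replicates. They came from clones A9 and JN alone, whose difference recurred between the days (r = 0.61). The standard errors and adjusted p therefore do not stand for 4 independent clones. Of the 10 genes, 4 were higher in cystic EBs and 4 lower, against 50.3% of all transcripts called (27.1% higher and 23.2% lower). The median log2 fold change was -0.56 over the 10 genes and 0.17 over all transcripts. Cdh2 was 115-fold higher in cystic EBs (log2 6.85 ± 0.78, adjusted p = 0.000145), Vim 11.7-fold (3.55 ± 0.31, adjusted p = 4.85e-05), Krt19 2.99-fold (1.58 ± 0.40, adjusted p = 0.00909) and Tjp1 2.84-fold (1.5 ± 0.36, adjusted p = 0.00768). Vil1 was 11.7-fold lower (log2 -3.55 ± 0.53, adjusted p = 0.000586), Cldn6 4.68-fold (-2.23 ± 0.47, adjusted p = 0.00395), Krt8 2.23-fold (-1.16 ± 0.28, adjusted p = 0.00775) and Krt18 1.65-fold (-0.72 ± 0.24, adjusted p = 0.0299). The ysE level under the Cdh2 fold rests on 12 and 55 reads, and the log2 value was 7.93 without ysE replicate B and 6.37 without replicate A. Cdh1 (log2 -0.78 ± 0.32, adjusted p = 0.0642) and Epcam (-0.39 ± 0.55, adjusted p = 0.569) did not pass. At this scaling Vil1, Cldn6 and the keratin pair were thus lower in cystic EBs, and Cdh2, Vim, Krt19 and Tjp1 were higher. The scaling factors of edgeR (TMM) were 1.12 to 1.21 for cystic EBs against 0.789 and 0.766 for E9.25 ysE. Folds therefore need not match ratios of RPKM. Mean RPKM in cystic EBs and ysE was 430 and 523 for Krt18, with overlapping ranges, and 87.2 and 84.06 for Epcam. Cdh1 missed the threshold although every ysE library lay above every cystic EB library, and it passed as lower in cystic EBs in 5 of the alternatives. These were a term for library protocol, the dUTP libraries alone, and the fits without the day 15 A9 library or without either mesoderm library (adjusted p as low as 0.0267 over the settings tried). The Krt18 call was also lost with the size factors of DESeq2, with only these groups in the fit, and without either day 10 library. Calls for Tjp1 and Krt18 needed both ysE libraries, being lost without either of them. The Krt19 call was lost without replicate A only, and the Krt8 call without replicate B only.

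**Figure D3:**
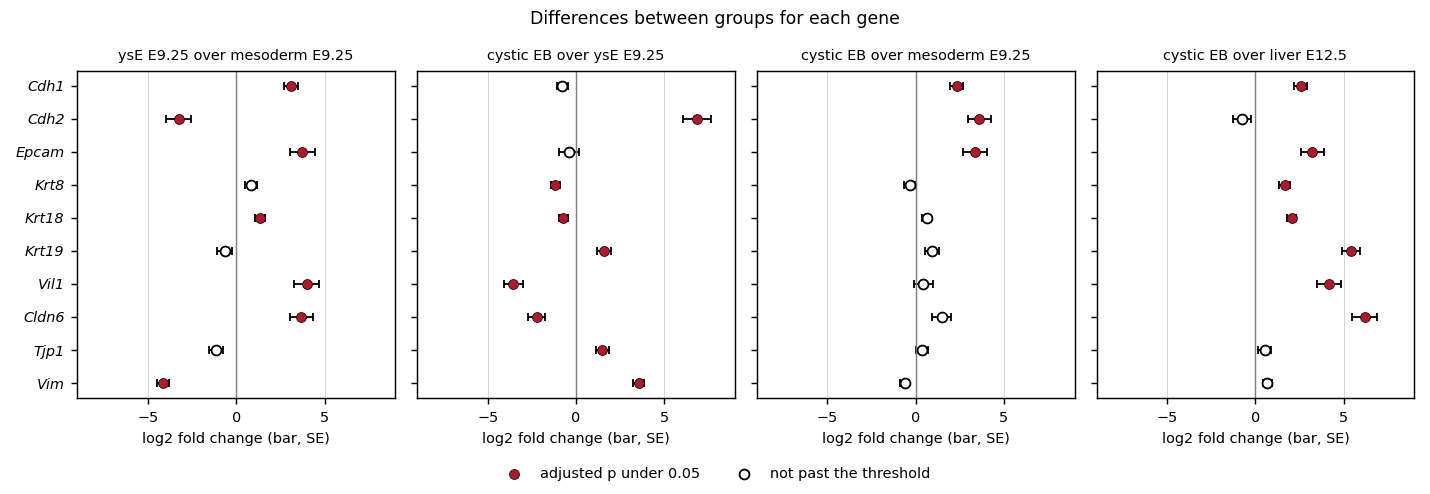
Log2 fold changes of the 10 genes with standard errors in 4 comparisons; filled points have an adjusted p under 0.05. Cystic EBs differ from ysE most in Cdh2 (6.85), Vim (3.55) and Vil1 (-3.55), and from liver most in Cldn6 (6.19) and Krt19 (5.41).

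Set against mesoderm, cystic EBs were higher in 3 of the 10 genes and lower in none, where 28.9% of transcripts were called (13.9% higher and 15% lower) and the medians were 0.77 (10 genes) and 0.03 (all transcripts). Cdh2 was higher by 3.60 ± 0.64 on the log2 scale (adjusted p = 0.00375), Epcam by 3.34 ± 0.67 (adjusted p = 0.0063) and Cdh1 by 2.31 ± 0.37 (adjusted p = 0.00214). Cdh1 and Cdh2 were therefore both higher in cystic EBs than in mesoderm. Vim (log2 -0.62 ± 0.25, adjusted p = 0.0937), Krt18 (0.61 ± 0.25), Krt19 (0.93 ± 0.38), Cldn6 (1.47 ± 0.53) and Vil1 (0.43 ± 0.55) did not pass. Neither did Krt8 and Tjp1. Vim passed as lower in cystic EBs with protocol as a term. In the dUTP libraries alone and by DESeq2, Cldn6, Krt18 and Krt19 also passed as higher (6 genes), and in the dUTP libraries the Vil1 value turned to -0.57. Cldn6 also passed with only these groups in the fit and without either liver library. Without mesoderm replicate B the Cdh1 value was 2.92, and without replicate A that of Cdh2 was 4.19. The Epcam call was lost without mesoderm replicate A (adjusted p up to 0.0709).

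Against fetal liver, the embryonic tissue of the series, cystic EBs were higher in 7 of the 10 genes and lower in none, beside 45.4% of all transcripts called (24.6% higher and 20.9% lower). Medians were 2.3 for the 10 genes and 0.20 for all transcripts. Cldn6 was higher by 6.19 ± 0.70 (log2; 73.1-fold, adjusted p = 0.000169), Krt19 by 5.41 ± 0.50 (42.5-fold, adjusted p = 6.29e-05) and Vil1 by 4.17 ± 0.68 (18.0-fold, adjusted p = 0.00115). Epcam, Cdh1, Krt18 and Krt8 were 9.34-fold, 5.84-fold, 4.15-fold and 3.14-fold higher, with adjusted p from 0.000378 to 0.00401. Cdh2 (log2 -0.75 ± 0.51), Vim (0.68 ± 0.27) and Tjp1 (0.52 ± 0.35) did not pass, although the Vim levels of the groups did not overlap. Within the ScriptSeq libraries, and with protocol as a term, Vim and Tjp1 passed as higher in cystic EBs (9 genes called), and Vim also did so without the day 10 JN library. The liver replicates were far apart in Epcam and Cldn6. Without liver replicate A the log2 values were 5.08 for Epcam and 7.64 for Cldn6, and without replicate B 2.44 and 5.49. The 8 hepatoblast markers summed to 1826 RPKM in liver replicate A and 3406 in replicate B, the opposite direction to Epcam and Cldn6. Sums higher in replicate A were those of mesothelium and mesenchyme (107.5 and 73.1), neural (13.1 and 5.89), cardiac (9.08 and 4.395) and pluripotency markers (1.47 and 0.021). The yolk sac endoderm, erythroid, endothelial and macrophage sums were lower in replicate A. The part of these cell types in the gap was not tested.

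The single E12.5 ysE library gave fits in which its spread was taken from the other groups. Standard errors and calls in every comparison with this library therefore do not measure how E12.5 samples vary. Cystic EBs were higher than E12.5 ysE in 2 of the 10 genes and lower in 5 (40% of transcripts called, 21.1% higher and 18.8% lower, with medians of -0.94 over the 10 genes and 0.42 over all). Vim was 68.3-fold higher in cystic EBs (log2 6.09 ± 0.51, adjusted p = 4.49e-05) and Cdh2 35.5-fold (5.15 ± 1.0, adjusted p = 0.00333). Vil1 was lower (log2 -3.23 ± 0.60, adjusted p = 0.0026), as were Cldn6 (-2.26 ± 0.56, adjusted p = 0.011), Cdh1 (-1.49 ± 0.38, adjusted p = 0.013), Krt18 (-1.22 ± 0.29, adjusted p = 0.00915) and Krt8 (-1.03 ± 0.35, adjusted p = 0.0422). Tjp1 (log2 1.29 ± 0.48), Krt19 (-0.86 ± 0.45) and Epcam (-0.80 ± 0.68) did not pass. Tjp1 passed as higher by DESeq2, with the replicate letter as a block, with protocol as a term and without the day 15 JN library, and Krt19 passed as lower without the day 15 A9 library. In the block the E12.5 library, which has no letter, was counted as A, the letter of clone A9. With only these groups in the fit, the Krt18 and Krt8 calls were both lost. The Krt8 call was also lost without any 1 of 7 libraries (day 15 A9, either E9.25 ysE, either mesoderm or either liver library), with adjusted p up to 0.144 over the settings tried.

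Between the stages of ysE, the single E12.5 library stood against dUTP libraries, so stage, protocol and library cannot be told apart. Of all transcripts 8.47% were called (3.9% higher and 4.57% lower), and 1 of the 10 genes was higher at E12.5 and 1 lower. Krt19 was 5.44-fold higher at E12.5 (log2 2.44 ± 0.50, adjusted p = 0.0196) and Vim 5.82-fold lower (-2.54 ± 0.42, adjusted p = 0.009). Without E9.25 replicate A the Krt19 call was lost, and without replicate B both were. Cdh2 (log2 1.70 ± 0.84), Cdh1 (0.71 ± 0.45) and Krt18 (0.50 ± 0.34) did not pass. These 3 and Epcam passed as higher with only these groups in the fit. Vil1 passed as lower with protocol as a term, but that term takes the clone difference of cystic EBs off the E12.5 library. The Vil1 call therefore says nothing on stage. The medians were 0.31 over the 10 genes and -0.20 over all transcripts, and the latter moved to -0.04 with the size factors of DESeq2. Of all calls, 46% were higher at E12.5 with TMM scaling and 58.6% with those size factors. The 6 endothelial markers summed to 6.15 and 8.47 RPKM at E9.25 and 0.372 at E12.5, and the 7 of mesothelium and mesenchyme to 29.0 and 46.3 against 19.5, and their part in the Vim value was not tested.

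The single E12.5 ysE library was also set against liver, of the same stage but another library protocol. Of the 10 genes, 9 were called, 7 higher in ysE and 2 lower, beside 46.3% of transcripts (22.6% higher and 23.7% lower). The medians were 3.65 for the 10 genes and -0.26 for all transcripts. Cldn6 was 351-fold higher in ysE (log2 8.46 ± 0.82, adjusted p = 8.93e-05), Vil1 168-fold (7.39 ± 0.85, adjusted p = 0.000189) and Krt19 77.3-fold (6.27 ± 0.56, adjusted p = 6.62e-05). The other genes higher in ysE were Cdh1, Epcam, Krt18 and Krt8, by log2 values of 4.04, 4.03, 3.28 and 2.68. Cdh2 was 59.8-fold lower (log2 -5.90 ± 1.06, adjusted p = 0.00178) and Vim 42.6-fold lower (-5.41 ± 0.50, adjusted p = 7.23e-05), whereas Tjp1 did not pass (-0.77 ± 0.50) but was lower with only these groups in the fit or with protocol as a term. Without liver replicate A the log2 values of Cldn6 and Epcam were 9.90 and 5.89, and without replicate B 7.75 and 3.24.

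Cystic EBs at day 15 and day 10 did not differ in any of the 10 genes by edgeR, where 0% of transcripts were called. At an unadjusted p under 0.05 there were 1358 transcripts and 0 of the 10 genes, and DESeq2 called 150 transcripts and 0 of the 10. The largest values were those of Cdh2 (log2 -0.81 ± 0.59) and Krt19 (0.76 ± 0.37, adjusted p = 0.928). Epcam, Krt8, Krt18 and Krt19 were higher at day 15 in both clones, and Tjp1 was lower in both, with 1 library per clone and day and no test within a clone. The yolk sac endoderm markers summed to 530 and 164 RPKM at day 10 and to 1255 and 499 at day 15 (A9 and JN).

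The clones, and with them the library protocols, were further apart than the days for several genes. Vil1 in clone JN was lower than in clone A9 by 2.10 (day 10) and 1.15 (day 15) on the log2 scale of RPKM, and Tjp1 by 0.94 and 0.90. Krt8 was higher in clone JN, by 0.99 and 0.60. Cdh1 differed little at day 10 (log2 -0.05) and was lower in clone JN at day 15 (-0.72). For Cdh2 the library that stood lowest was day 15 A9, at 2.57 RPKM, where its level in clone A9 had been 10.98 at day 10. Epcam varied least among the 4 libraries, the highest being 1.32 times the lowest, and Cdh2 and Vil1 varied most, at 4.28 times each.

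**Figure D4:**
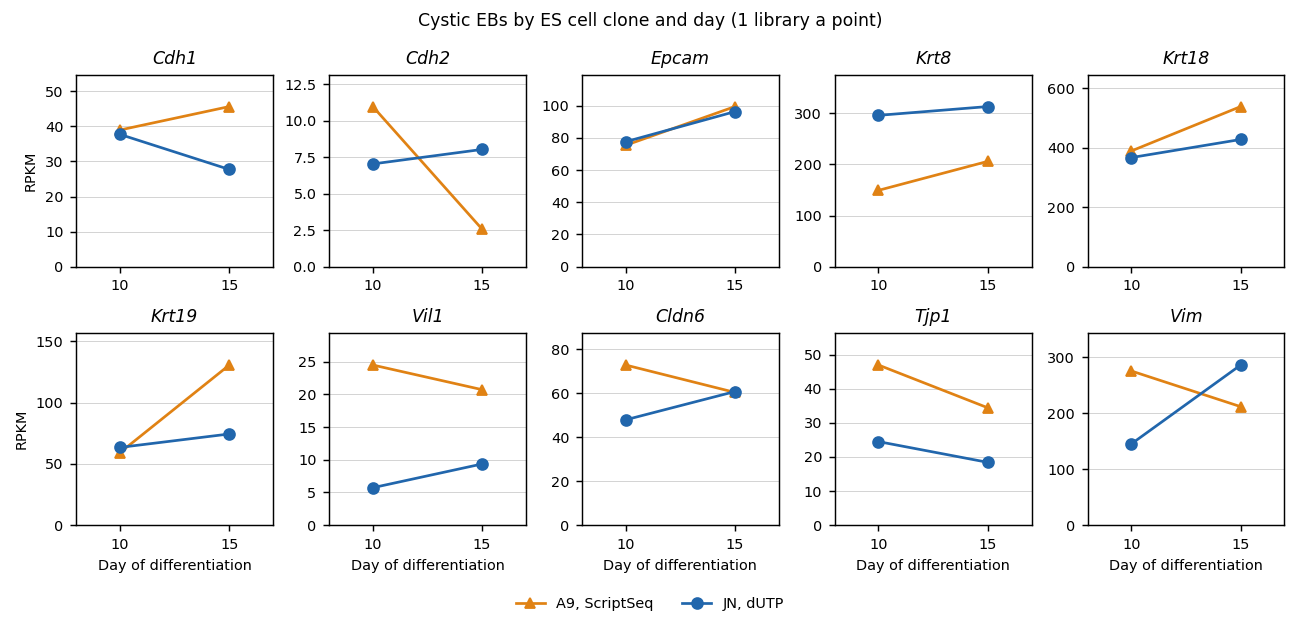
RPKM of the 10 genes in cystic EBs at 10 and 15 days for clone A9 (ScriptSeq libraries) and clone JN (dUTP libraries), 1 library per point. Krt8 is higher and Vil1 and Tjp1 are lower in clone JN on both days, and Cdh2 in clone A9 goes from 10.98 to 2.57 RPKM.

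Ratios within a library set the partners against each other. Krt8 over Krt18 was 0.739 and 0.763 in E9.25 ysE, 0.486 in E12.5 ysE, and 1.09 and 1.07 for mesoderm. Cystic EBs of clone A9 gave ratios of 0.384 and 0.383 and those of clone JN 0.807 and 0.733, and in the ScriptSeq libraries of liver it was 0.853 and 0.649. Cdh1 over Cdh2 was 2100 and 745 in E9.25 ysE and 533 in E12.5 ysE. This ratio was 6.39 and 26.4 for mesoderm, 3.45 to 17.8 for cystic EBs and 0.424 and 0.675 for liver. Krt18 over Vim was 37.4 and 36.2 in E9.25 ysE and 302 in E12.5 ysE, but 0.627 to 2.54 in the 8 libraries of mesoderm, liver and cystic EBs. Krt18 over Krt19 fell in 2 ranges: 24.6 to 83.7 in E9.25 ysE and liver, and 4.12 to 7.11 in mesoderm, cystic EBs and E12.5 ysE.

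Likeness of pattern was described by Pearson's r of log2(RPKM + 1) over the 11 libraries, among 10115 genes reaching 5 RPKM in at least 1 library. The libraries share tissue, protocol and depth, so r is given as a description. Of the 20 names that follow, only 8 were also found with a pseudocount of 0.1. The genes closest to Cdh1 were 1700019D03Rik (r = 0.984) and Espn, an actin bundler of microvilli (r = 0.978), and those closest to Epcam were St14, an epithelial membrane protease (r = 0.980), and Ripk4 (r = 0.962). Vil1 was closest to Mcoln1 (r = 0.988) and the folate receptor Folr1 (r = 0.986), and Cldn6 to Sel1l3 (r = 0.989) and Gna13 (r = 0.988). For the keratins they were Cstb and Chmp1a (Krt8), Atxn10 and Tollip (Krt18), and Rab31 and Dnajc5 (Krt19), with r from 0.972 to 0.988. Cdh2 was most like Strbp (r = 0.979) and Cecr2 (r = 0.976), Tjp1 most like Armcx1 (r = 0.964) and Bmpr2 (r = 0.958), and Vim most like Fstl1 (r = 0.984) and Marcks (r = 0.982). Within the 10 genes, Krt18 and Cldn6 were the closest pair (r = 0.952), ahead of Vil1 and Cldn6 (r = 0.928) and of Cdh1 and Epcam (r = 0.924). Krt8 had Krt18 as its nearest of the 10 (r = 0.876), which ranked 700 among all genes. Cdh2 and Vil1 were the least alike (r = -0.736).

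Related genes were counted as lists in the same fits, to be read against the share of all transcripts called: 13.7% higher and 16.9% lower for E9.25 ysE over mesoderm, and 27.1% higher and 23.2% lower for cystic EBs over E9.25 ysE. Of 24 brush border genes, 16 were higher in E9.25 ysE than in mesoderm and 1 lower, with a median log2 of 2.80 against -0.05 over all transcripts. In cystic EBs against E9.25 ysE, 15 of these 24 were lower and 4 higher, with a median of -2.19 against 0.17. The PDZ scaffold Pdzk1 was at 192 and 203 RPKM in E9.25 ysE and 2.31 to 4.98 in cystic EBs (log2 -6.35 ± 0.40, adjusted p = 1.58e-05), and the intermicrovillar cadherin Cdhr2 at 72.4 and 84.4 against 0.522 to 1.99 (-6.26 ± 0.53, adjusted p = 3.96e-05). Its partner Cdhr5 was lower too (log2 -6.16 ± 0.63, adjusted p = 8.82e-05). Between the yolk sac layers, Pdzk1, Anks4b and Pls1 were higher in ysE by log2 values of 3.98, 3.88 and 3.43. Vill and Cobl, further actin-binding genes of this list, were higher in cystic EBs than in E9.25 ysE, as were Myo1a and the protease Mep1b. These 4 were named after their values were seen.

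Of 18 tight junction genes, 13 were higher in E9.25 ysE than in mesoderm and 1 lower (median 2.80), against 13.7% and 16.9% of all transcripts. The lower gene was Cldn5, the claudin of endothelium, at 1.07 and 1.23 RPKM in ysE and 34.4 to 49.5 in mesoderm (log2 -4.86 ± 0.94, adjusted p = 0.00409). Cystic EBs against E9.25 ysE had 3 of the 18 higher and 7 lower, beside 27.1% and 23.2% of all transcripts (median -0.36 against 0.17). Cldn2, a pore-forming claudin, was at 55.5 and 58.2 RPKM in ysE and 0.244 to 5.93 in cystic EBs (log2 -5.0 ± 0.91, adjusted p = 0.00179), and Cldn1 and Cldn7 were lower by 4.27 ± 0.60 and 1.73 ± 0.41. Of 14 adherens junction genes, 4 were higher and 2 lower in cystic EBs against E9.25 ysE (median 0.31), no larger a share than the 50.3% of all transcripts called there. The cadherins among the higher ones were Cdh11, at 4.94 to 33.5 RPKM against 0.713 and 0.886, and Cdh6, at 8.56 to 13.97 against 0.503 and 0.536. In the yolk sac layers, 3 adherens junction genes were higher in ysE and 5 lower, Cdh11 and the endothelial cadherin Cdh5 among the latter. Of 8 desmosome genes, 3 were higher and 4 lower when cystic EBs were set against E9.25 ysE (median 0.28), and 3 higher and 1 lower in ysE than in mesoderm. Of 8 other keratins, 2 were higher and 1 lower in ysE than in mesoderm, with Krt7 at 75.4 and 86.3 RPKM against 11.1 and 12.1. In cystic EBs against E9.25 ysE, 3 of these keratins were higher and 2 lower (median 2.66 against 0.17). Krt15 was higher by a log2 of 6.11 ± 1.68, at 9.32 RPKM in day 15 A9 and 0.436 to 0.712 in the other cystic EB libraries. Krt17 was higher by 3.78 ± 1.09, at 0.23 to 0.834 RPKM, and Krt7 was lower (-1.84 ± 0.65, adjusted p = 0.0388). Krt5, Krt14 and Krt23 did not pass. They too were highest in day 15 A9, at 3.35, 4.02 and 4.97 RPKM, against 0.667 or less in the other cystic EB libraries.

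Of the 9 transcription factors of mesenchymal transition, 0 were higher and 5 lower in E9.25 ysE than in mesoderm (13.7% and 16.9% of all transcripts), and cystic EBs against ysE gave 7 higher and 0 lower (27.1% and 23.2% of all transcripts), with a median of 2.20 against 0.17. Zeb1 was at 2.05 to 6.87 RPKM in cystic EBs and 0.257 and 0.285 in ysE (log2 3.50 ± 0.45, adjusted p = 0.000281), and Zeb2 at 3.12 to 5.72 against 0.293 in both (3.32 ± 0.31, adjusted p = 6.04e-05). Of 12 epithelial splicing and transcription factors, 8 were higher in ysE than in mesoderm and 1 lower, and for cystic EBs against ysE the counts were 5 higher and 4 lower. Klf4 was higher in cystic EBs (log2 3.14 ± 0.74, adjusted p = 0.00656) and Ovol1 lower (-2.75 ± 0.57, adjusted p = 0.00352), while Esrp1, a splicing factor of epithelia, was at log2 0.15 ± 0.38. Against liver, 10 of these 12 were higher in cystic EBs and 0 lower (24.6% and 20.9% of all transcripts), with a median of 3.82 against 0.20. The 9 genes of mesenchymal cytoskeleton and matrix were lower in ysE than in mesoderm in 6 cases, and 7 were higher in cystic EBs than in ysE. Among these 7 was Acta2, smooth muscle actin, at 24.7 to 102 RPKM against 2.97 and 3.70.

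CpG methylation near the gene starts was read within 1 kb to either side, with at least 5 reads per library. Coverage was thin, with a median of 10.0 to 13.0 reads per promoter window, and 2 libraries against 2 allow no exact permutation p below 0.333, so no test was made. The intervals are 95% exact Clopper-Pearson limits and cover counting error only, and reads from neighbouring CpGs can come from the same molecule. Where no read was methylated, the limit given is instead 3 divided by the number of reads. The Cdh1 window was methylated in 1 of 42 reads in ysE of the FVBxCast cross (2.38%, interval 0.0603% to 12.6%) and in 0 of 5 reads in CastxFVB, which allows up to 60%. In liver it was 10.7% (3 of 28 reads) and 0% (0 of 5, again allowing up to 60%). Cystic EBs gave 25% (5 of 20 reads, interval 8.66% to 49.1%) and 61.9% (13 of 21, interval 38.4% to 81.9%). Within 500 bases of the start the pooled values were 10.5% in cystic EBs and 2.17% in ysE, so most of the methylated cystic EB reads lay farther out. Of the Cdh1 reads, 13 of 20 and 6 of 21 in cystic EBs lay within 500 bases, against 5 of 5 and 41 of 42 in ysE. The Cdh1 windows of these tissues were thus read at different positions. With the CastxFVB library first, the Epcam window held 16.7% and 5.56% in ysE and, for liver, 0% (0 of 6 reads, allowing up to 50%) and 16.7%. Cystic EBs had 66.7% (interval 38.4% to 88.2%) and 55.6% (interval 21.2% to 86.3%). Over all promoters with enough reads, medians were 29.6% and 31.7% for ysE, 44.4% and 50% for liver, and 55.6% and 60% for cystic EBs. Both windows thus lay below the ysE median in ysE. Of the cystic EB reads for Epcam, 4 of 15 (2 methylated) and 1 of 9 (0 methylated) lay within 500 bases of the start, against 4 of 6 and 18 of 18 in ysE, so that the tissues were read at different positions.

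The Vil1 window was methylated in most reads of every library: 86.8% (33 of 38 reads, interval 71.9% to 95.6%) and 86.7% (13 of 15) in ysE. Liver had 70.4% and 55.6% (interval 35.3% to 74.5%), the latter near the median of that library over all promoters, cystic EBs 100% (5 of 5) and 90.9% (10 of 11). None of the ysE reads lay within 500 bases of the Vil1 start, so the ysE values describe the flanks and not the promoter itself, whereas in cystic EBs 3 of 3 and 9 of 9 reads within 500 bases were methylated. For Cldn6, ysE gave 25% and 42.9%, cystic EBs 40.0% in both crosses, and liver, where its RPKM was lowest, 0 of 6 reads in the library with reads (allowing up to 50%). Within 500 bases of the Cldn6 start, 1 of 10 and 0 of 4 reads were methylated in ysE and 0 of 6 and 0 of 3 in cystic EBs, so the methylated cystic EB reads lay in the flanks. Krt19 stood at 22.2% and 0% (0 of 9 reads, allowing up to 33.3%) in ysE against 66.7% and 18.2% in cystic EBs and 40.0% in the liver library with enough reads, and Cdh2 at 50% and 28.0% in ysE. Liver values for Cdh2 were 14.3% and 47.4%, and the cystic EB library with enough reads gave 62.5%. Over the 6 genes with reads in all 3 tissues, the median of the pooled values was 22.2% for ysE, 24.8% for liver and 53.2% for cystic EBs. Within 500 bases, with fewer genes read, these medians were 10.0%, 4.17% and 24.0%. Vim was at 9.09% and 0% (0 of 6 reads, allowing up to 50%) in ysE and 10.0% in the liver library with enough reads, with too few reads in cystic EBs. Krt8 and Krt18 were not analysed in liver. In the gene bodies, mean methylation of Vim was 61.5% ± 3.96 (SD, n = 2) for ysE, 78.2% ± 3.18 for liver and 88.2% ± 0.99 for cystic EBs, and that of Cdh2 68.2% ± 4.60, 78.9% ± 3.04 and 90.7% ± 2.19, in the order of the median over all gene bodies (66.7% and 71.9%, 79.0% and 81.0%, 81.7% and 86.1%). Tjp1 (81.2%, 82.9% and 88.8%) and Cldn6 were in that order too. Bodies of the 10 genes were read from 1 kb past the start, whereas the medians over all gene bodies cover each gene from end to end. In ysE the Cldn6 gene body had 0 of 5 reads methylated in one library (allowing up to 60%) and 0 of 2 in the other, against means of 83.3% in liver (6 of 8 and 11 of 12 reads) and 92.7% in cystic EBs (29 of 34 and 8 of 8). Cdh1 did not show that order, with 77.2% ± 4.31, 79.6% ± 1.98 and 77.9% ± 4.95, and neither did Krt19 (means 78.0%, 92.4% and 85.4%) or Vil1 (84.3%, 76.5% and 82.3%), while Epcam had 79.2% in both ysE and liver and 84.4% in cystic EBs.

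**Figure D5:**
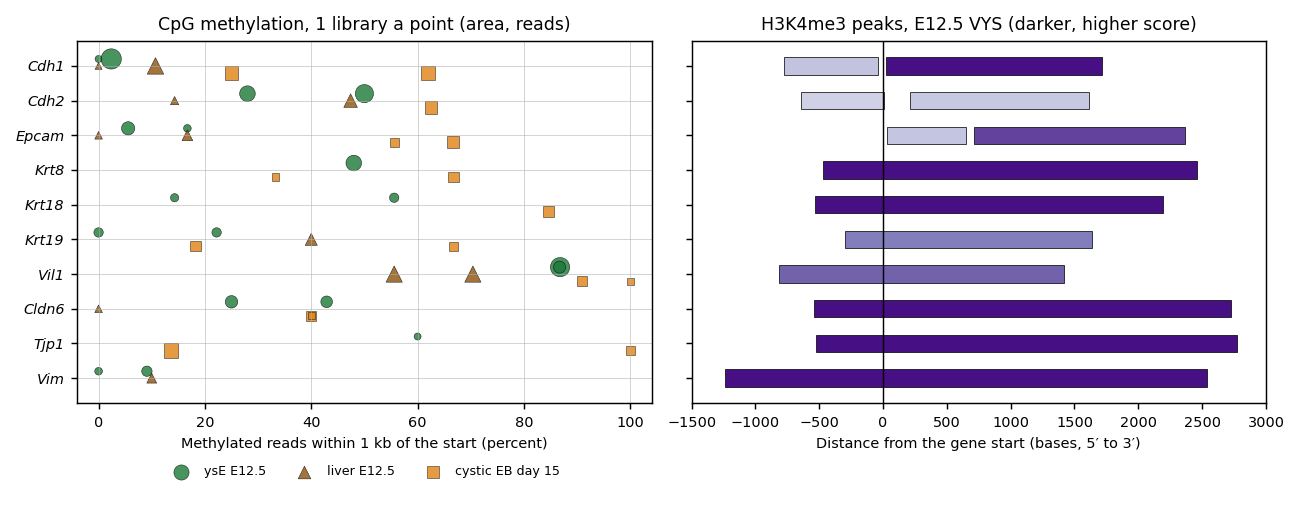
Left, percent of methylated reads within 1 kb of the gene start, 1 library per point with its area scaled to the number of reads (at least 5). Right, extent of the H3K4me3 peaks around each start in E12.5 visceral yolk sac; Cdh1 and Epcam have peaks beside the start, and the peak of Vim is the widest at 3777 bases.

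H3K4me3, a mark of active promoters, was found within 1 kb of the start of all 10 genes in whole E12.5 visceral yolk sac, where 59.2% of 17491 protein-coding promoters had a peak. Whole yolk sac contains both layers, so a peak does not tell which layer carries it. The score given by MACS (the p-value as -10 log10) was 3100 for Cdh1, Krt8, Krt18, Cldn6, Tjp1 and Vim, 2414 for Epcam, 2021 for Vil1, 1630 for Krt19 and 355 for Cdh2, against a median of 863 over 22343 peaks. Cdh2, at 0.155 RPKM in E12.5 ysE, was the only one of the 10 below that median. The score of 3100 sat at percentile 87.0 of all peaks by the mean rank of ties, and it does not rank the genes that share it. Peaks covered the start itself in 8 genes (53.7% of all promoters). At Cdh1 peaks lay from -774 to -38 and from 23 to 1717 bases relative to the start, and at Epcam from 28 to 652 and from 712 to 2364 bases. The Vil1 peak reached from -818 to 1417 bases and the Vim peak from -1238 to 2538 bases. For Cdh1, Cdh2 and Krt19 the start was taken as the gene end that had a peak within 1 kb, so their peak is what placed them and is no finding, and the other 7 starts came from the RefSeq promoter table.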

How the data were processed

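RNA-seq reads were aligned by the authors with GSNAP to mm10, and counts per RefSeq transcript, without normalization, were deposited. RPKM values were deposited beside these counts, and the library size behind them and the use of strand in counting are not given in the sources used here. Reads shared with keratin pseudogenes could be split by that counting. The authors deposited bisulfite calls (BisSNP) as percent methylation per CpG with its read count, and H3K4me3 peaks with the score of MACS 1.4.2. Exon part and repeat counts were not used.

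Samples were grouped from the labels. Counts of 11 libraries in 5 groups were fitted in R 4.3.3 with edgeR 4.0.16 (TMM, filterByExpr, quasi-likelihood test, Benjamini-Hochberg adjustment over 24858 transcripts, 5% threshold). Standard errors were taken from the fold change and the F statistic. Days of differentiation were compared in a fit of 6 groups. Replicate letters stand for ES clones in cystic EBs, where day 10 and day 15 deviated together (r = 0.61), and the blocked fit there also called 0 transcripts. Elsewhere the letters share only a name (r from -0.07 to 0.16). The tissue replicates are separate pools of litters. Alternatives were DESeq2 1.42.0, other scaling and filtering, single protocols and libraries left out. Scripts were tested on simulated data, and other values were computed with Python 3.11.15, numpy 2.4.6, pandas 2.3.3 and scipy 1.17.1. Promoter sequences and positions were those of RefSeq on GRCm38.p6, and promoter windows matched 7 of 10 symbols.

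Members, related lists and tests were chosen with earlier results of these data known. All 10 genes are named, and likeness names the 2 genes with the highest r. From each related list, at most the 3 genes with the largest change past the threshold and no overlap between groups are named in the first 2 comparisons. Esrp1, Vill, Cobl, Myo1a and Mep1b, and the cystic EB values of Krt5, Krt14 and Krt23, were added after their values were seen. Depth was 40453779 to 169981821 counts per library, and for methylation the read counts stand beside the values.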

Additional observations from a re-analysis of the deposited data

Results flagged for a closer look

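In 5 of the 10 genes, the change from day 10 to day 15 of cystic EBs went in opposite directions in the ES clones. These differences were not tested, since each clone and day has 1 library. On the log2 scale of RPKM, day 15 over day 10 was -2.10 in clone A9 and 0.19 in clone JN for Cdh2, and -0.38 and 0.98 for Vim. For Vil1 the values were -0.24 and 0.71, for Cldn6 -0.27 and 0.34, and for Cdh1 0.23 and -0.44, again for clone A9 and clone JN. Among the 4 cystic EB libraries no gene had a value beyond Dixon's limit, the widest gap being that of Krt19 in day 15 A9, at 0.787 of the range.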

How the results depend on the processing

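Of 65 log2 values printed for the 10 genes, 35 kept their direction and their side of the threshold in every alternative. Over 1179 alternative values, 1108 were unaltered in both respects, 28 lost a call, 41 gained one and 2 changed sign. Those 2 were Vil1 in cystic EBs over mesoderm, at -0.62 with library protocol as a term and -0.57 in the dUTP libraries alone. In both fits the cystic EB value comes from clone JN, where Vil1 was lower than in clone A9, and the cause was not tested. Log2 values of the 10 genes that are not printed were left out of these counts, and some of them changed sign between settings. Examples are Vil1 in day 15 over day 10 (-0.74 to 1.4) and Tjp1 in E12.5 over E9.25 ysE (-0.75 to 0.38). Others, such as Epcam in both of these comparisons, did not. The number of transcripts called over all genes moved by more than 1.5 times in these cases. With only the compared groups in the fit it was 13160 (E9.25 ysE over mesoderm), 6344 (cystic EB over E12.5 ysE) and 10559 (E12.5 over E9.25 ysE, 6 of the 10 genes called). DESeq2 called 4018 and the fit with a protocol term 4515 in E12.5 over E9.25 ysE, and DESeq2 called 150 in day 15 over day 10. In cystic EBs over mesoderm, DESeq2 and the dUTP libraries alone each called 6 of the 10 genes. At a 1% threshold, cystic EBs over E12.5 ysE gave 5794 transcripts and 4 of the 10 genes. Leaving out 1 library at a time gave 4021 to 8411 transcripts (6 to 9 of the 10 genes) in E9.25 ysE over mesoderm, 7603 to 12845 (5 to 9) in cystic EBs over E9.25 ysE, 2512 to 7772 (2 to 4) in cystic EBs over mesoderm, 6668 to 12055 (7 to 8) in cystic EBs over liver, 8754 to 10513 (6 to 8) in cystic EBs over E12.5 ysE, 349 to 2859 (0 to 2) in E12.5 over E9.25 ysE, 9043 to 12325 (9 in each) in E12.5 ysE over liver and 0 to 42 (0 in each) in day 15 over day 10. Where this left 1 library in a group, its spread was taken to be that of the others.

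With the replicate letter as a block, Tjp1 passed in E9.25 ysE over mesoderm and in cystic EBs over E12.5 ysE (8 genes called in each), and no other call among the 10 genes was altered. The E12.5 ysE library has no letter and was counted as A, the letter of clone A9. How far the call against E12.5 ysE depends on that choice was not tested. The blocked fit called 8006 transcripts in E9.25 ysE over mesoderm.

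The median promoter methylation, over 6 genes in the report, was taken over those of them that kept enough reads. In ysE it was 33.3% with at least 10 reads (5 genes), 10.0% within 500 bases (5 genes) and 16.8% in the FVBxCast library alone (6 genes). In cystic EBs it was 24.0% within 500 bases (4 genes) and 66.7% in the CastxFVB library alone (5 genes), and in liver 4.17% within 500 bases (3 genes), 10.7% in the CastxFVB library alone and 40.0% in the FVBxCast library alone or with at least 10 reads (5 genes each). The loss of genes and the setting cannot be told apart where fewer than 6 remain. All 10 genes kept a peak at a score of at least 100, where 57.1% of protein-coding promoters had one. For Cdh1, Cdh2 and Krt19 a peak had placed the start, so theirs is no finding. Of the 20 gene names given for likeness, 8 were also found with a pseudocount of 0.1 and 16 with no minimum RPKM. Cdh2 in ysE (12 to 55 reads) and most promoter windows are limited by depth.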
